A study of Mus musculus with 37 samples.

Results

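The 3 genes described here encode the GCKIII subfamily of STE20-type protein kinases: 2610018G03Rik, the older name of Stk26 (MST4), and its paralogues Stk24 (MST3) and Stk25 (SOK1, also called YSK1). They are 3 of the 39017 genes in a table of read counts from 37 mouse tumours, 1 library per tumour. They were taken by symbol, and 1 row was found for each. 2610018G03Rik had been chosen by its count levels, which differed between T cell high and T cell intermediate clones in libraries free of liver and heart transcripts, so its values in that contrast are a description with no test. The intermediate clones take part in the contrast with low clones as well, and the same holds there. Stk24 and Stk25 were taken as paralogues.

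Clones of pancreatic tumour cells were implanted under the skin of C57BL/6 mice, which received no treatment, and bulk tumours were collected 3 weeks later. The labels give 15 T cell high tumours from 7 clones, 15 T cell low tumours from 7 clones, 4 intermediate tumours from 2 clones (bulk_6422c5 and bulk_7160c5), and 3 tumours from 3 clones with no phenotype. The sources used here do not give how the phenotype was measured, the genotype of the tumour cells, or the age and sex of the mice. Total counts ranged from 18.15 to 101.42 M in high, 7.39 to 44.36 M in low, 27.97 to 102.33 M in intermediate and 31.5 to 161.73 M in unlabelled tumours. Tumours grown from 1 clone are not independent, and the clone therefore served as the replicate.

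Liver and heart transcripts divided the libraries into 2 classes, and the levels and phenotype differences of the 3 kinases are given in both. Myh6 and Myh7 of the heart and Cps1 and Serpina3k of the liver summed to 257.7 to 5922 CPM (the counts of a gene scaled to a common library total) in 17 of the 34 libraries with a phenotype, and 0.0652 to 0.538 CPM in the other 17. All 16 labelled tumours numbered 1 were in the first class, together with 1 other tumour. In 4 libraries of the first class, from 4 clones, that sum reached at least 93.2% of the highest. Among these 4, Stk24 differed 1.08-fold, Stk25 1.09-fold and 2610018G03Rik 3.31-fold between the lowest and the highest library. Krt19, a ductal keratin, stood at 124.1 to 2289 CPM in the 37 tumours, while the acinar enzyme genes Cpa1 and Prss2 did not exceed 0.662 and 4.82 CPM. Cela1, the third acinar marker, stood at 4.65 to 77.5 CPM.

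GCKIII kinases consist of an N-terminal catalytic domain and a C-terminal region that binds the adaptor Pdcd10 (CCM3), a product of a cerebral cavernous malformation gene. Through Pdcd10 they join STRIPAK, a complex in which striatins hold kinases and the phosphatase PP2A together. The scaffold protein Cab39 (MO25) raises their activity, and the matrix protein Golga2 (GM130) recruits Stk26 and Stk25 to the Golgi. Stk26 phosphorylates the membrane-cytoskeleton linker Ezr, and Stk24 activates the NDR kinases Stk38 and Stk38l.

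In the GRCm38 annotation of GENCODE M21, 2610018G03Rik (ENSMUSG00000031112, named Stk26 there) lies on chrX:50841047-50893097 on the plus strand. Stk24 (ENSMUSG00000063410) lies on chr14:121286343-121380011 on the minus strand, and Stk25 (ENSMUSG00000026277) on chr1:93619751-93658659 on the minus strand. To show how far reads of the 3 genes can be told apart, the most alike stretch of 60 bases was taken from their longest coding sequences in the GENCODE transcripts. It is exonic coding sequence, at bases 143 to 202 of the coding sequences of Stk26-201 and Stk24-201 and 131 to 190 of that of Stk25-201. Each is written 5′ to 3′, with capitals at the positions where the 3 genes do not all have the same base.
2610018G03Rik: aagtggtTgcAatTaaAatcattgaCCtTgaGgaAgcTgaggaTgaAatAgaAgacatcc
Stk24: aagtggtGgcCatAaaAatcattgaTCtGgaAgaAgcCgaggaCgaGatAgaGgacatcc
Stk25: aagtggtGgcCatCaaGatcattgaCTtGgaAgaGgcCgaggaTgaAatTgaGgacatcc

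Even in that stretch, 46 of the 60 bases were the same in all 3 genes and the differences were spread along it. Over the whole coding sequence, Stk24 and Stk25 were identical at 69.4% of aligned bases, Stk24 and 2610018G03Rik at 68.5%, and Stk25 and 2610018G03Rik at 65.6%. The longest run of identical bases between any pair was 17 bases. No stretch of 30 bases from the transcripts of 1 of the 3 genes, on either strand, occurred in those of another. With other genes, Stk24 shared none of its 5313 such stretches and 2610018G03Rik 4 of 5299. Stk25 shared 1249 of 5843, of which 937 lay in Farp2, a plus-strand gene that overlaps its end, and 303 in the antisense gene Gm28536. The sources used here do not state whether counting used strand, so reads from the shared 21.4% of Stk25 cannot be told apart from those of its partners. Farp2 stood at 5.59 to 23.3 CPM in the 37 tumours, below every Stk25 level.

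2610018G03Rik was low in high and low clones and higher in the intermediate clones, most of all in bulk_6422c5. Among libraries without liver and heart transcripts, the 8 high tumours ranged from 0.926 to 3.35 CPM of total counts, with a median of 2.38. The 7 low tumours ranged from 1.47 to 4.63 CPM, with a median of 2.22. The 2 intermediate tumours stood at 38.7 CPM (bulk_6422c5) and 11.4 CPM (bulk_7160c5). The high and low tumours overlapped over most of their range, and both intermediate tumours lay above all 15 of them. bulk_6422c5 was 17.4-fold over the median of those 15 and 8.36-fold over the highest, a tumour of low clone bulk_6419c1. bulk_7160c5 was 5.12-fold over that median and 2.46-fold over the highest. These values come from the contrast used to choose the gene.

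**Figure D1:**
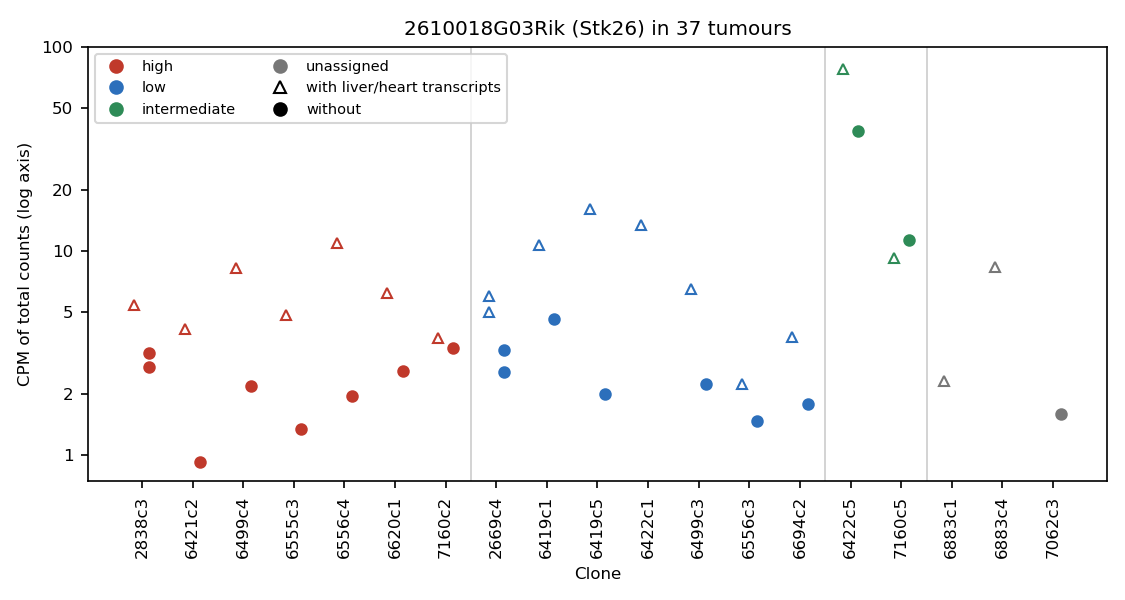
Level of 2610018G03Rik in 37 tumours, in CPM of total counts on a log axis, with 1 column per clone in the order high, low, intermediate and unlabelled. Open triangles are libraries with liver and heart transcripts and filled circles those without. The 2 tumours of bulk_6422c5, at 78.0 and 38.7 CPM, are the highest of all.

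Libraries with liver and heart transcripts are further tumours of the same clones, and the choice of the gene did not use these tumours. The 2 intermediate clones are those through which it was chosen, so these libraries hold no independent test of a difference between clones. There the 7 high tumours ranged from 3.73 to 10.9 CPM (median 5.43) and the 8 low tumours from 2.24 to 16.04 CPM (median 6.27). bulk_6422c5 reached 78.0 CPM, from 3479 reads, 4.86-fold over the highest of those 15. bulk_7160c5 stood at 9.25 CPM, above 11 of the 15 and 0.577 of the highest. The sum of liver and heart genes was 4.90% of the highest in the library of bulk_6422c5 and 4.35% in that of bulk_7160c5. The median difference of the 3 liver markers between intermediate and low clones was -3.47 in this class, so the groups compared also differ in these transcripts, and their part was not tested. One intermediate clone was thus apart from the high and low tumours in both classes, and the other in 1 class. In these libraries the edgeR quasi-likelihood test, with Benjamini-Hochberg adjustment over all genes tested, gave high minus intermediate as -2.94 on the log2 scale (SE 0.60, adjusted p = 0.0799). Intermediate minus low was 2.47 (SE 0.60, adjusted p = 0.0739). Neither passed the threshold of 0.05. Both are given as a description, since the choice of the gene rested on the same intermediate clones. In these libraries 0% of 18830 genes passed in either contrast, and at an unadjusted p under 0.05 there were 2913 and 3883 genes.

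The size of the difference rested on bulk_6422c5. Over all libraries, high clones averaged 3.81 ± 1.32 CPM with TMM scaling (SD, n = 7 clones), low clones 6.01 ± 4.27 (n = 7) and intermediate clones 39.9 ± 42.4 (n = 2). Low clone bulk_6422c1 entered with 1 library only, one with liver and heart transcripts, at 13.4 CPM of total counts. High minus intermediate was -3.39 (SE 0.59) over all libraries and -3.57 (SE 0.46) in libraries without liver and heart transcripts. Left with bulk_7160c5 alone, the intermediate group differed from high by -1.38 and -2.35 in those sets, and without bulk_7160c5 by -4.17 and -4.23. Intermediate minus low was 2.73 (SE 0.60) and 3.38 (SE 0.49), and without bulk_6422c5 it was 0.73 and 2.16. Where liver and heart transcripts were absent, 2610018G03Rik was the 1 gene called between high and intermediate clones, which is 0.00559% of 17905. Nothing is read from that call, since it is how the gene was chosen. Across all libraries, 0% of 20348 genes were called in this contrast, with 2099 at an unadjusted p under 0.05 and 542 called by DESeq2.

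High and low clones did not differ detectably in 2610018G03Rik. High minus low was -0.65 (SE 0.45, adjusted p = 0.730, edgeR) over all libraries, -0.19 (SE 0.37, adjusted p = 0.954) without and -0.47 (SE 0.45, adjusted p = 0.698) with liver and heart transcripts. Leaving out low clone bulk_6422c1, whose only library holds those transcripts, it was -0.32 over all libraries. Over all libraries 0% of genes were called here, with 1516 at an unadjusted p under 0.05 and 21 called by DESeq2. An exact two-sided permutation test of the clone means of log2 CPM gave a difference of -0.41 (p = 0.321). The smallest p it can give for 7 against 7 clones is 0.000583, and the test was run on the 3 genes.

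Stk24 stood at a similar level in all 3 phenotypes. Among libraries without liver and heart transcripts, high tumours ranged from 131.7 to 324.6 CPM (median 145.9) and low tumours from 110.5 to 229.1 CPM (median 143.2). The intermediate tumours stood at 143.5 CPM (bulk_6422c5) and 140.7 CPM (bulk_7160c5), within both ranges. In libraries with those transcripts, high tumours ranged from 125.2 to 175.1 CPM, low tumours from 125.0 to 196.9, and the 2 intermediate tumours were at 125.1 and 153.6 CPM. High minus low was -0.00 (SE 0.15, adjusted p = 0.996, edgeR), intermediate minus low -0.05 (SE 0.23, adjusted p = 0.948) and high minus intermediate 0.04 (SE 0.23, adjusted p = 0.976). The spread of Stk24 lay within phenotypes rather than between them, both between clones and between tumours of 1 clone. Its 3 highest clones in libraries without liver and heart transcripts were high clone bulk_2838c3 (259.3 CPM with TMM scaling) and low clones bulk_6694c2 (233.9) and bulk_6556c3 (233.2). The next, bulk_6556c4, stood at 176.4 CPM, and the lowest, bulk_6419c5, at 104.8. The 2 tumours of bulk_2838c3 in this class were at 324.6 and 212.1 CPM. The third tumour of that clone, with liver and heart transcripts at 94.3% of the highest sum, was at 129.7 CPM. The distance between tumours of 1 clone was thus larger than the gaps between the 3 top clones, and the order of these clones is not resolved.

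No difference in Stk25 between phenotypes passed the test over all genes. In libraries without liver and heart transcripts, high tumours ranged from 171.1 to 264.3 CPM (median 205.9) and low tumours from 162.8 to 196.6 CPM (median 177.1). The intermediate tumours stood at 131.0 CPM (bulk_6422c5), the lowest of the class, and 187.1 CPM (bulk_7160c5). High and low tumours overlapped between 171.1 and 196.6 CPM. Clone means were 205.4 ± 19.9 CPM with TMM scaling (n = 7) in high and 179.8 ± 11.1 (n = 6) in low clones. The exact two-sided permutation test gave 0.20 on the log2 scale (p = 0.0186) in this class and 0.21 (p = 0.0414) over all libraries, neither adjusted for the 3 genes tested. The edgeR adjusted p for high minus low was 0.796 in this class (0.19, SE 0.10) and 0.667 over all libraries (0.24, SE 0.11). In libraries with liver and heart transcripts the difference was 0.09 (SE 0.14, adjusted p = 0.831). Intermediate minus low was 0.18 (SE 0.16, adjusted p = 0.643) over all libraries and -0.17 (SE 0.15) without those transcripts, so its direction was not the same in both sets. High minus intermediate was 0.05 (SE 0.16, adjusted p = 0.952), with 0.36 (SE 0.15) in libraries without and -0.22 (SE 0.21) in those with liver and heart transcripts. In the latter the highest tumours belonged to bulk_7160c2, a high clone at 243.1 CPM, and bulk_2669c4, a low clone at 218.1 CPM.

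**Figure D2:**
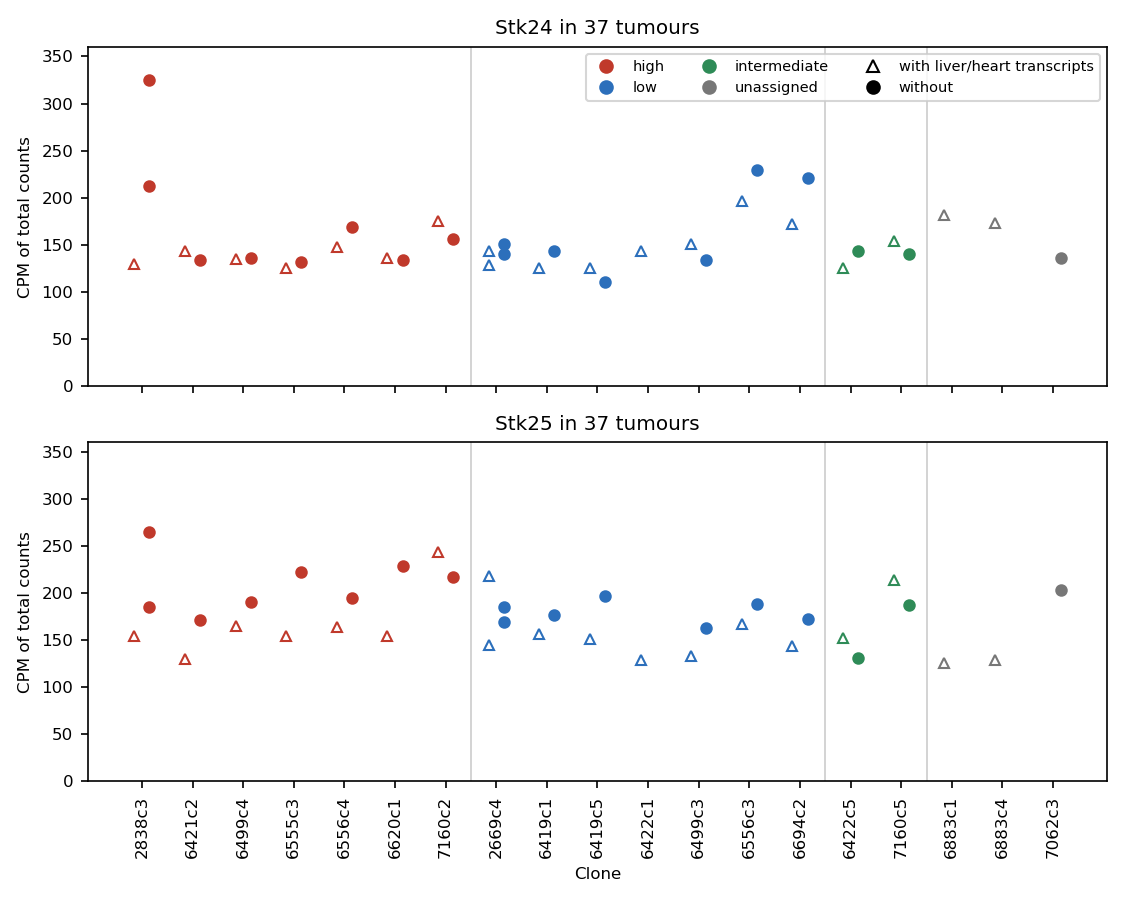
Levels of Stk24 (top) and Stk25 (bottom) in 37 tumours, in CPM of total counts on axes that start at 0, with clones in the same order and symbols as for 2610018G03Rik. The high, low and intermediate tumours overlap for both genes, and bulk_2838c3 holds the highest value of each, 324.6 and 264.3 CPM.

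**Figure D3:**
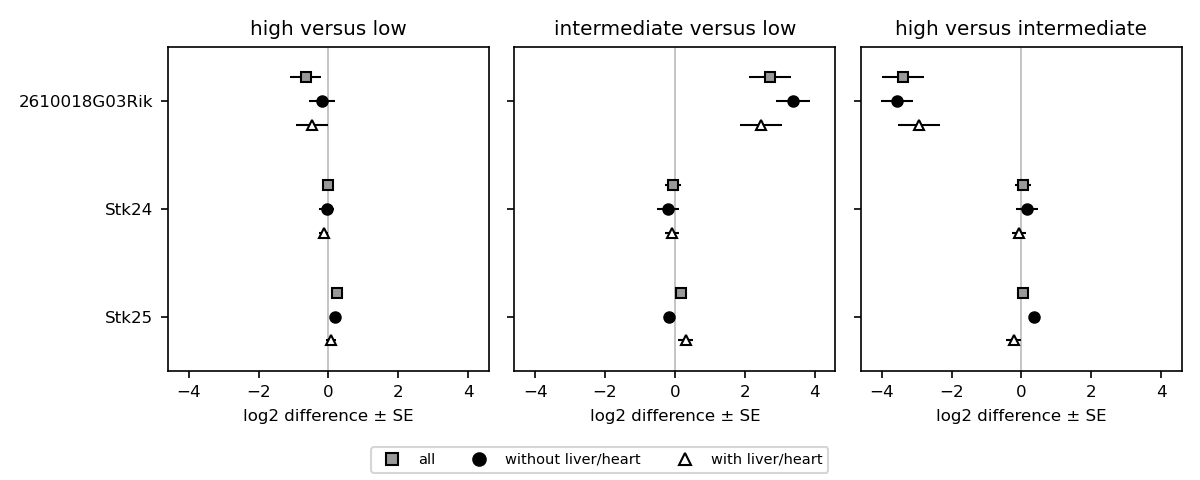
Differences between phenotypes for the 3 genes on the log2 scale, as edgeR estimates with bars of 1 SE, for all libraries (squares), those without (circles) and those with (triangles) liver and heart transcripts. 2610018G03Rik lies between 2.47 and 3.38 for intermediate minus low and between -3.57 and -2.94 for high minus intermediate, whereas Stk24 and Stk25 lie within 0.36 of 0 in every panel.

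Scaled by length, 2610018G03Rik was the minor kinase of the family in high and low tumours. In the 15 such libraries without liver and heart transcripts, it stood at 0.176 to 0.879 RPKM (the CPM of total counts divided by the exon length in kilobases), with a median of 0.421. Stk24 stood at 20.7 to 60.6 RPKM (median 26.8) and Stk25 at 28.0 to 45.5 RPKM (median 32.4). 2610018G03Rik thus made up 0.321 to 1.51% of the summed RPKM of the 3 genes there. In bulk_6422c5 it made up 12.96%, and in bulk_7160c5 3.56%. In libraries with those transcripts its share was 0.642 to 5.81% in high and low tumours, 23.0% in bulk_6422c5 and 2.61% in bulk_7160c5. Stk25 and Stk24 remained the larger parts of the sum in the libraries named here. In bulk tumours, a change in the number of cells of a type and a change in RNA per cell cannot be told apart.

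**Figure D4:**
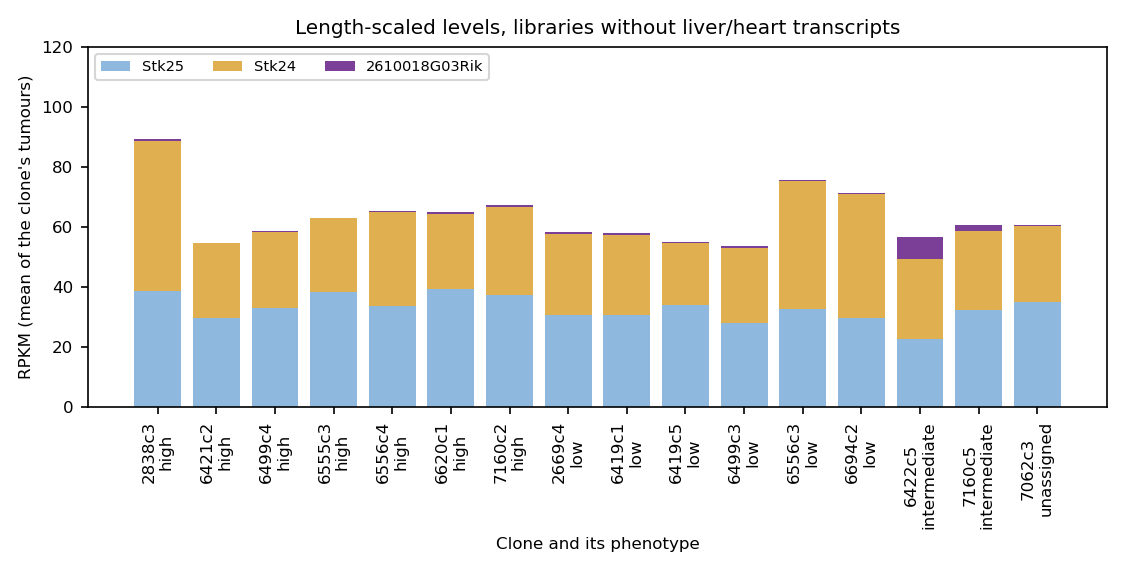
Stacked RPKM of Stk25, Stk24 and 2610018G03Rik per clone in libraries without liver and heart transcripts, each the mean of the clone's tumours, with the phenotype under the clone. The band of 2610018G03Rik is thin in high and low clones and reaches 7.35 RPKM in bulk_6422c5.

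Within clones, the libraries with liver and heart transcripts held more 2610018G03Rik than those without. This comparison was chosen after seeing the data. Over the 15 clones with both classes, with the clone as a block, the difference was 1.28 on the log2 scale (SE 0.22, adjusted p = 0.000134, edgeR), and the gene was higher in 14 of 15 clones. bulk_6419c5 had the widest gap, 16.04 against 1.99 CPM. The exception was bulk_7160c5, with 9.25 against 11.4 CPM. Other transcripts differed between the same libraries: the Y-linked genes Ddx3y by 5.76 and Eif2s3y by 5.58 (each higher in 13 of 15 clones), the collagen gene Col1a1 by -2.04 (higher in 0 of 15) and the macrophage gene C1qa by -0.72 (2 of 15). Of all 16586 genes tested, 25.6% were called higher and 23.3% lower in libraries with those transcripts, so the call places the gene in a large part of the table. In the 8 clones whose liver and heart sum stayed under 60% of the highest, the difference was 0.85 (SE 0.24, adjusted p = 0.0304, higher in 7 of 8), where 10.7% of genes were called higher. Stk25 was lower by this comparison, at -0.24 (SE 0.07, adjusted p = 0.00878), and lower in 12 of 15 clones. In the 8 clones it was -0.10 (SE 0.10, adjusted p = 0.501), and the call was lost. Stk24 differed by -0.13 (SE 0.08, adjusted p = 0.203). The part of these other transcripts in the differences was not tested.

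Pairs of clones with the same leading number in their names were set against each other, tumour by tumour. This fit used counts per tumour, so its SE and p-values measure the spread between tumours of a clone, not between clones. In the pairs with no intermediate clone, each clone had 1 tumour with and 1 without liver and heart transcripts. The SE there thus includes the difference between these library classes. For 2610018G03Rik, which is described here without a test where an intermediate clone takes part, bulk_6422c1 stood at 13.4 CPM in its 1 tumour against 78.0 and 38.7 in bulk_6422c5. bulk_7160c2 stood at 3.73 and 3.35 CPM against 9.25 and 11.4 in bulk_7160c5. In both pairs the intermediate clone was the higher one, with no overlap. The other 3 pairs differed by -0.26 (SE 0.90, bulk_6419c1 minus bulk_6419c5), -0.30 (SE 0.91, bulk_6499c3 minus bulk_6499c4) and -1.76 (SE 0.93, bulk_6556c3 minus bulk_6556c4), and none passed the test. No pair passed for Stk24 or Stk25, of which the largest difference was 0.41 for Stk24 in bulk_6556c3 minus bulk_6556c4 (SE 0.27). Of 20421 genes, 0.0245% were called between bulk_6499c3 and bulk_6499c4 and 0% in the other 4 pairs, where 336 to 846 genes had an unadjusted p under 0.05.

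The genes next to 2610018G03Rik did not share its pattern to the same extent. Before it lie the olfactory receptor genes Olfr1322, Olfr1323 and Olfr1324, which did not exceed 0.0286 CPM in any tumour. After it lie Frmd7, Rap2c and Mbnl3, the first only 2083 bases away on chrX:50895180-50942710. Frmd7, a FERM domain gene, stood at 5.49 and 3.75 CPM in the tumours of bulk_6422c5, ranks 2 and 4 of 37, and at 0.371 and 0.124 CPM in those of bulk_7160c5. Rap2c, a small GTPase of the Ras family, stood at 89.1 and 99.4 CPM in bulk_6422c5, ranks 3 and 1, and at 52.2 and 60.6 CPM in bulk_7160c5. Both were thus high in bulk_6422c5 and not in bulk_7160c5. High minus intermediate was -1.86 (SE 0.93, adjusted p = 0.517) for Frmd7, -0.52 (SE 0.19, adjusted p = 0.351) for Rap2c and -0.14 (SE 0.38, adjusted p = 0.947) for Mbnl3, an RNA-binding protein of the muscleblind family. The X-linked transcript Xist stood at 1561 and 635.7 CPM in bulk_6422c5 and at 4.07 and 230.3 CPM in bulk_7160c5. The implanted cells and the host both contribute to bulk RNA, and the part of each was not tested.

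Levels of 2610018G03Rik were then compared with those of 13020 genes over the 15 clones with libraries free of liver and heart transcripts. The points share sequencing depth and cell make-up within a clone, so correlations are given as descriptions. The 5 genes most like it were Lims1, an adaptor of integrin adhesions (r = 0.86), Ehd4, an endocytic ATPase (0.85), Mmp9, a secreted gelatinase (0.85), Pip4k2a, a phosphoinositide kinase (0.85), and Ctsc, a lysosomal dipeptidase (0.83). Without the 2 intermediate clones, which lie farthest from the median, r fell to 0.60 for Lims1, 0.46 for Ehd4, 0.75 for Mmp9, 0.58 for Pip4k2a and 0.78 for Ctsc. Lims1, Ehd4, Mmp9 and Pip4k2a were highest in bulk_6422c5, and Ctsc in bulk_7160c5. Mmp9 ranged from 43.4 to 409 CPM over clones and Ctsc from 165.4 to 519.9. 2610018G03Rik itself had r = -0.04 with Stk24 and -0.48 with Stk25, and 0.09 and 0.17 without the intermediate clones. Stk24 and Stk25 had r = 0.21. Markers of other cell types were read in the same libraries. bulk_7160c5 had the highest sums of fibroblast (30146 CPM), macrophage (1617), endothelial (264.9) and T cell (22.6) markers in its class. bulk_6422c5, where 2610018G03Rik was highest, had 13043, 469.5, 116.9 and 5.61 CPM, within the ranges of high and low tumours, and the lowest granulocyte sum, 39.8 CPM. The other tumour of bulk_6422c5, with liver and heart transcripts, had a granulocyte sum of 362.3 CPM. High tumours of that class ranged from 56.9 to 209.9 CPM and low tumours from 29.3 to 473.9. The fibroblast sum of that tumour was 8505 CPM, against 3406 to 16974 in high and 1483 to 5574 in low tumours. Over all libraries, unadjusted p was under 0.05 between intermediate and low clones for 5 of 5 T cell, 5 of 5 macrophage, 6 of 6 fibroblast and 3 of 4 endothelial markers, all higher, and none was called. Counted in either direction, unadjusted p was under 0.05 for 3 of 7 ductal, 0 of 4 granulocyte and 0 of 3 B cell markers, and for 16% of all genes. The 7 ductal markers had a median difference of -0.33, and 3 of the 7 were above 0. In libraries without liver and heart transcripts, unadjusted p was under 0.05 for 4 of 5 T cell, 1 of 5 macrophage and 5 of 6 fibroblast markers. For endothelial, granulocyte, B cell and ductal markers the counts were 0 of 4, 0 of 4, 0 of 2 and 3 of 7. The ductal median difference was -0.29 there. The share of all genes there was 6.27%. Over the 15 clones, r of 2610018G03Rik with the marker sums was 0.36 for fibroblasts, 0.20 for endothelial cells, 0.18 for macrophages and 0.17 for T cells. For granulocytes, B cells and ductal tumour cells it was -0.08, 0.11 and -0.20. Without the intermediate clones r was 0.14, 0.14, 0.27, -0.12, 0.59, 0.17 and 0.27 in that order. The part of cell make-up in its level was not tested.

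Stk24 moved with other genes of its chromosome. The 3 genes most like it were Slc25a30, a mitochondrial carrier (r = 0.95), Dcp1a, an mRNA decapping factor (0.91), and Socs4, a suppressor of cytokine signalling (0.91). All 3 lie on chromosome 14, as Stk24 does, and all were highest in bulk_2838c3. Of the 50 genes most like Stk24, 32 (64%) were on chromosome 14, against 3.47% of all genes compared, and 2 of these 32 lay within 20 Mb of it. Leaving out bulk_2838c3 and bulk_6556c3, 26 of 50 were on that chromosome. In libraries with liver and heart transcripts the number was 8 of 50, against 3.52%. The count of 50 was chosen after the first genes had been seen.

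In libraries without liver and heart transcripts, clones with high Stk24 tended to have high levels of other chromosome 14 genes. In bulk_2838c3, the median of the 452 other chromosome 14 genes was 0.28 above their level in the median clone on the log2 scale, and 73.5% of them were above it. The median was 0.28 in bulk_6556c3, 0.26 in bulk_6556c4 and 0.23 in bulk_6694c2, and these 4 clones were also the 4 highest for Stk24. Stk24 itself was 0.89, 0.72, 0.31 and 0.70 above its own median clone there, more than the typical gene of the chromosome. At the other end, bulk_6419c5 had a chromosome median of -0.20 and a Stk24 deviation of -0.45. Over 15 clones, Stk24 and the chromosome median had r = 0.86 (rho = 0.80), and 0.78 without the 2 clones farthest on the chromosome median. bulk_2669c4 departed from this, with a chromosome median of -0.19 and Stk24 at 0.05. In libraries with liver and heart transcripts r was 0.49 and rho 0.35 over 16 clones. The chromosome median there was -0.02 in bulk_2838c3, 0.05 in bulk_6556c3, 0.07 in bulk_6556c4 and 0.08 in bulk_6694c2. Stk24 deviated by -0.16, 0.49, 0.05 and 0.27 in the same order, so bulk_2838c3 was not raised in that class. The 1 library of bulk_2838c3 in that class had 94.3% of the highest liver and heart sum. It was 1 of the 4 such libraries nearly alike in Stk24, at 125.0 to 134.5 CPM, and the part of those transcripts was not tested. High and low clones stood among both the highest and the lowest. DNA copy number was not analysed here.

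**Figure D5:**
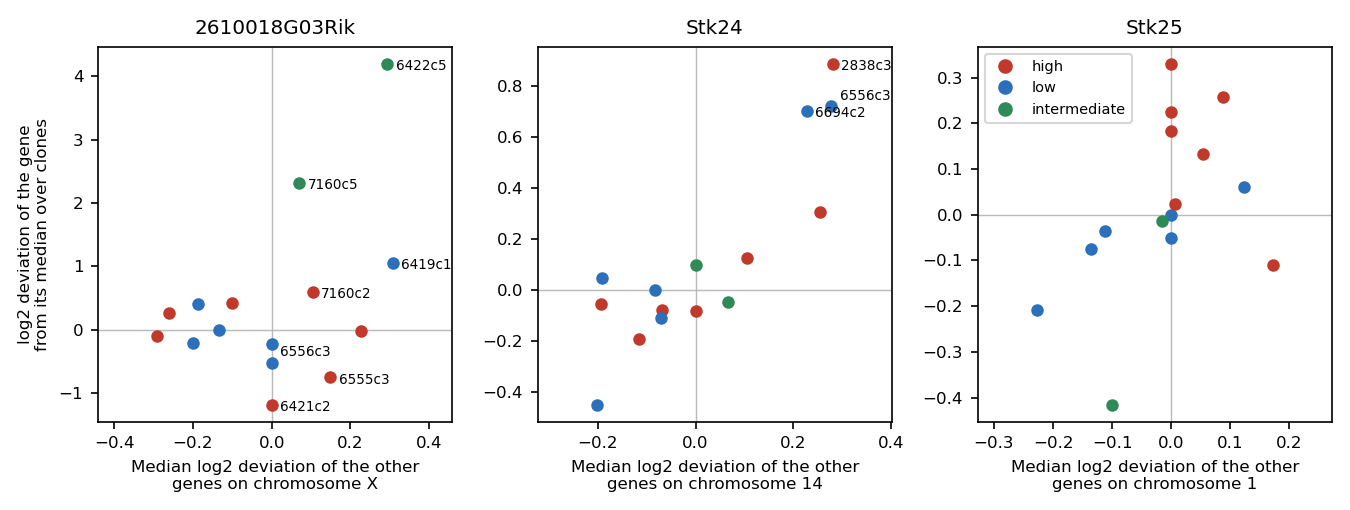
Deviation of each kinase gene from its median over 15 clones (vertical, log2) against the median deviation of the other genes on its chromosome (horizontal, log2), in libraries without liver and heart transcripts. Each point is a clone and clones more than 0.5 from the median on the vertical axis are named. The points of Stk24 rise together with chromosome 14 (r = 0.86), while bulk_6422c5 and bulk_7160c5 lie far above the other clones for 2610018G03Rik.

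The share was smaller for the other 2 kinases. Of the 50 genes most like Stk25, 11 (22%) were on chromosome 1, against 5.95% of all genes compared. In libraries with liver and heart transcripts the number was 3 (6%), against 5.98%. The 3 most like it were Nptx1, a secreted neuronal pentraxin (r = 0.90), Plekhb2, a PH domain protein (0.84), and Zscan2, a zinc finger protein (0.82). Of these, Plekhb2 lies on chromosome 1. Of the 50 genes most like 2610018G03Rik, none was on chromosome X, which held 3.195% of the genes compared, and 2 in libraries with liver and heart transcripts. In bulk_6422c5 the median chromosome X gene was 0.29 above its median clone, against 4.19 for 2610018G03Rik. In bulk_7160c5 the values were 0.07 and 2.32. In libraries with liver and heart transcripts they were 0.40 and 3.74 in bulk_6422c5, and -0.12 and 0.53 in bulk_7160c5. In bulk_6422c5 the gene thus stood far from the typical gene of its chromosome in both classes, and in bulk_7160c5 mainly in the class used to choose it. The r of 2610018G03Rik with the chromosome median was 0.43 over 15 clones without and 0.70 over 16 clones with those transcripts, and 0.03 and 0.48 without the 2 clones farthest on the chromosome median.

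The pathway around these kinases was followed in 5 lists with 51 members. None of the 51 was called by edgeR in any of the 3 contrasts over all libraries, where 4 (high against low), 5 (intermediate against low) and 5 (high against intermediate) had an unadjusted p under 0.05. Over all 20348 genes these were 1516 (7.45%), 3261 (16%) and 2099 (10.3%), so the lists did not stand out by this count over all libraries. In libraries with liver and heart transcripts the counts were 11, 4 and 2 of 51, against 11.2%, 20.6% and 15.5% of 18830 genes. The share for high against low was thus above that of all genes there, and no member was called. In libraries without those transcripts they were 3, 4 and 1 of 50, against 6.52%, 6.27% and 3.94%. Over all libraries, DESeq2 called Ppp1r14c, an inhibitor of protein phosphatase, lower in intermediate than in low clones and in high clones. It was among 945 and 542 genes that DESeq2 called in these contrasts, and limma voom called no list member. Ppp1r14c was 7.04 higher on the log2 scale in libraries with liver and heart transcripts (15 of 15 clones), and the median difference of the heart markers between intermediate and low clones was -3.06. The part of those transcripts in its difference was not tested. The edgeR differences of Ppp1r14c were -2.87 (SE 0.91, adjusted p = 0.134) for intermediate minus low and 2.68 (SE 0.90, adjusted p = 0.303) for high minus intermediate, and the gene was named after this call was seen.

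The 7 CCM partners had a median high minus intermediate difference of -0.38, against -0.04 over all genes, and all 7 values were below 0, none past the test. Pdcd10, the shared adaptor, was at -0.68 (SE 0.27, adjusted p = 0.380) over all libraries and -0.22 (SE 0.22) in those without liver and heart transcripts. For high minus low, Pdcd10 was at -0.36 (SE 0.19, adjusted p = 0.675), Krit1, a scaffold of the complex, at -0.24 (SE 0.19), and Ccm2 at -0.33 (SE 0.13, adjusted p = 0.724) in libraries without those transcripts. The 16 STRIPAK genes had a median high minus low difference of -0.06. Among them, Strn was at -0.04 (SE 0.16) and Strn3, a second striatin, at -0.33 (SE 0.14, adjusted p = 0.667), or -0.13 in libraries without liver and heart transcripts. Mob4, another subunit, was at 0.33 (SE 0.15, adjusted p = 0.758) without and -0.48 with those transcripts, so its direction turned between the classes.

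The 7 activators and adaptors had a median high minus low difference of 0.01, with Cab39 at -0.04 (SE 0.11), Golga2 at 0.01 (SE 0.11) and Stk11, the kinase LKB1, at 0.15 (SE 0.10). The 9 genes of substrates and polarity had a median of -0.15. Ezr was at -0.54 (SE 0.24, adjusted p = 0.272) for intermediate minus low over all libraries, -0.27 (SE 0.28) without and -0.82 (SE 0.24, adjusted p = 0.0797) with liver and heart transcripts. The 12 genes of the list of other related kinases, which includes the non-kinase partners Sav1, Mob1a and Mob1b, had a median high minus low difference of -0.04. Of these, the Hippo kinase Stk3 was at -0.30 (SE 0.18) for high minus low. Stk4, also a Hippo kinase, was at 0.36 (SE 0.17, adjusted p = 0.290) for intermediate minus low, a different contrast. The NDR kinases Stk38 and Stk38l, which belong to the list of substrates and polarity, were at -0.06 (SE 0.09) and -0.15 (SE 0.18) for high minus low. The median over all genes was -0.00 for high minus low.

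The 3 tumours without a phenotype entered no comparison. 2610018G03Rik stood at 2.31 CPM in bulk_6883c1, 8.39 in bulk_6883c4 and 1.59 in bulk_7062c3. Stk24 stood at 181.7, 173.2 and 136.3 CPM in the same order, and Stk25 at 125.7, 128.5 and 203.2 CPM. The first 2 libraries hold liver and heart transcripts and the third does not. bulk_6883c1 had the lowest Stk25 of the 37 tumours.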

How the data were processed

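The authors deposited 1 table of gene-level read counts covering 37 tumours, made with STAR and featureCounts on mm10, per the submitters' processing notes. The sources used here name no versions, annotation or strand setting. The counts are whole numbers and were not normalised. RNA came from bulk tumours, and libraries were made with an NEB kit and read on an Illumina NextSeq, per the labels' protocols. GENCODE M21 (GRCm38) gave coordinates, lengths and sequences, and 37607 of 39017 identifiers were found in it.

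Counts were summed per clone and fitted with edgeR 4.0.16 (R 4.3.3), with TMM scaling, the default expression filter, 1 coefficient per phenotype and the two-sided quasi-likelihood test. Benjamini-Hochberg adjustment ran over all genes tested (threshold 0.05). SE is the absolute log2 difference divided by the square root of F. Fits were repeated for libraries with over 10 CPM of Myh6, Myh7, Cps1 and Serpina3k summed, and for the rest. Alternatives were RLE scaling, no filter, DESeq2 1.42.0, limma voom 3.58.1, counts per tumour, a block for tumour number, and each clone left out. Clones of 1 phenotype may share an origin, in which case p-values are too small. Tests were tried on simulated counts first.

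The members, lists and rules were chosen with earlier results of these data known. The genes named are the 3 members, 14 partners set by name, called list members, 3 neighbours on each side, and the genes with the highest Pearson r over clones (mean log2 CPM, prior count 2, at least 1 CPM, predicted genes left out), 5 for 2610018G03Rik and 3 for each paralogue. Depth per library runs from 7.39 to 161.73 M counts, and 2610018G03Rik rests on 28 to 3479 reads.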

Additional observations from a re-analysis of the deposited data

Results flagged for a closer look

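In libraries without liver and heart transcripts, Stk24 in high clone bulk_2838c3 stood at 259.3 CPM with TMM scaling, and the next of the 7 high clones at 176.4 CPM. The gap was 0.613 of the range of the group, above the limit of 0.568 for 7 values. In libraries with liver and heart transcripts, Stk25 in high clone bulk_7160c2 stood at 249.9 CPM, and the next of the 7 high clones at 159.4 CPM, a gap of 0.772 of the range. These are 2 clones that lie far from the others, among 18 groups examined, and chance alone marks about 1 in 20 groups. In the opposite class of libraries, bulk_7160c2 was at 216.0 CPM for Stk25, within the range of the high clones, and bulk_2838c3 was at 129.7 CPM of total counts for Stk24, likewise within it. The library of bulk_2838c3 in that opposite class had 94.3% of the highest liver and heart sum. The cause of either flagged value was not tested.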

How the results depend on the processing

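Alternatives that left no clone out were counted first for differences and counts of called genes. Of these, 109 kept direction and side of the threshold or stayed at 0 called genes. A further 8 newly passed the threshold, 1 no longer passed it, 7 changed sign and 10 counts of called genes moved from 0. The 8 were all 2610018G03Rik in contrasts with the intermediate clones, on which it was chosen. For the most alike genes and their chromosomes, 21 values stayed alike and 18 moved. RLE scaling and the lack of a filter were among the alternatives that changed no call for the 3 genes. In the sets of libraries, Stk25 intermediate minus low turned to -0.17 without liver and heart transcripts, and high minus intermediate turned to -0.063 for Stk24 and -0.22 for Stk25 with them. No alternative called Stk24 or Stk25 between phenotypes. 2610018G03Rik was chosen on the intermediate clones, so its values there are listed as a description and no call is read from them. Intermediate minus low was 2.75 with counts per tumour, a fit that treats tumours of 1 clone as independent, 2.45 with limma voom and 2.69 with DESeq2. High minus intermediate was -3.57 in libraries without liver and heart transcripts, where 1 gene was called, -3.15 with counts per tumour and -3.36 with DESeq2. Stk24 high minus low, near 0 throughout, was 0.045 with counts per tumour and 0.013 with limma voom. Genes called with counts per tumour numbered 38 (high and low), 421 (intermediate and low) and 4 (high and intermediate), with DESeq2 21, 945 and 542, and with limma voom 130 for intermediate and low. Stk25 between library classes within clones lost its call in the 8 clones with a lower liver and heart sum (-0.10).

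The tumour number repeats within a phenotype and does not pair samples, so the fit with that number as a replicate block is given here only. With the block, 2610018G03Rik was 2.88 for intermediate minus low and -3.27 for high minus intermediate, Stk24 high minus low was 0.029, and 2610018G03Rik in bulk_6419c1 minus bulk_6419c5 was 0.048, against -0.26 without the block. The block called 874 genes between intermediate and low and 18 between high and intermediate clones.

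Leaving out each clone in turn, in both sets of libraries, 2610018G03Rik ranged from -0.81 to 0.076 for high minus low, 0.73 to 4.05 for intermediate minus low and -4.23 to -1.38 for high minus intermediate. The ends of the last 2 ranges came from leaving out bulk_6422c5 or bulk_7160c5, where the lone intermediate clone is assumed to vary like the others. Stk24 ranged from -0.20 to 0.092, -0.30 to 0.040 and -0.047 to 0.22, and Stk25 from 0.15 to 0.27, -0.37 to 0.36 and -0.12 to 0.57. Genes called ranged from 0 to 1 for high and low, 0 to 567 for intermediate and low (567 without bulk_7160c2 and 480 without bulk_6422c5, over all libraries) and 0 to 5 for high and intermediate clones. The 2 intermediate clones limit the precision of every contrast with them, and the lowest read count of 2610018G03Rik in a library was 28. The cause of these changes was not tested.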
